A study of Mus musculus with 9 samples.

Results

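BAP1 is the catalytic subunit of a nuclear deubiquitinase complex that removes mono-ubiquitin from a lysine in the tail of histone H2A, a mark laid down by Polycomb repressive complex PRC1 and linked to gene silencing. Most mammalian promoters lie in CpG islands, stretches of DNA in which the CpG dinucleotide has escaped the loss that methylation causes elsewhere. Promoters without a CpG island are typical of genes used in one tissue or cell state, and many of them start transcription from a TATA box or from sites for lineage transcription factors. The data below describe the binding sites of BAP1 that lay at promoters of this second kind.

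The sites came from Ba/F3 cells, a murine B cell lineage precursor line that grows in interleukin 3. Chromatin of wild type Ba/F3 cells was immunoprecipitated with an anti-BAP1 antibody, and chromatin of Ba/F3 cells that stably express triple-FLAG-tagged murine BAP1, kept under puromycin, was immunoprecipitated with an anti-FLAG antibody. Each of these 2 immunoprecipitations was sequenced once, and both gave rise to 1 list of 13164 peaks, every peak 200 bp wide, on mouse build mm9. The list holds positions only, so the height of a peak, its significance, the sample in which it was called and the sequencing depth are unknown, and all intervals below cover counting error only.

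A promoter was defined by 1 transcription start site (TSS) for each of 22367 protein-coding genes of the GENCODE M1 annotation, that of the transcript with the longest genomic span. Its CpG ratio was the number of CpG dinucleotides observed over the number expected from the C and G content, counted from 500 bp upstream to 500 bp downstream of the TSS. Promoters with a ratio below 0.4 were called CpG-poor, and all others CpG-rich. By this rule 8857 promoters (39.6%) were CpG-poor. A promoter had a peak when the middle of a peak lay within 1 kb of its TSS.

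Of the 8857 CpG-poor promoters, 282 had a BAP1 peak, which is 3.18% (95% Wilson interval 2.84 to 3.57%). Of the 13510 CpG-rich promoters, 8121 had one, which is 60.1% (59.3 to 60.9%). The share over all protein-coding promoters was 37.6%. The CpG-poor share was lower than the CpG-rich share by 56.9 percentage points (Newcombe interval of the difference, CpG-poor minus CpG-rich, -57.8 to -56.0), with an odds ratio of 0.0218 (0.0193 to 0.0247). The 282 promoters held 296 of the 13164 peaks, and 264 of them had 1 peak, 16 had 2 and 2 had 3. The promoters with 3 peaks were those of *Gapdh*, a glycolytic enzyme, and *Pnpla7*, a lysophospholipase. Of the *Pnpla7* peaks, those at -996 and -858 bp lay 61 and 77 bp from a CpG-rich TSS of another gene. Only the peak at -29 bp had the *Pnpla7* TSS as its nearest start site.

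The share with a peak rose in every step of the CpG ratio, and CpG-poor promoters were the low end of one gradient. It was 0.255% (0.0994 to 0.655%) for the 1566 promoters with a ratio under 0.1, 1.64% between 0.1 and 0.2, 3.44% between 0.2 and 0.3 and 8.60% (7.35 to 10.0%) between 0.3 and 0.4. Above the limit it went on to 17.8% between 0.4 and 0.5 and 39.7% between 0.5 and 0.6, and reached 75.3% between 0.8 and 0.9 and 77.0% at 0.9 and more, the last step being the only one whose interval overlapped that of the step before. The genes with a peak nearest to the limit were *Rpl13a* (ratio 0.3996), *Wdr83* (0.3998) and *Trpt1* (0.3998) on the CpG-poor side and *Kdelr1* (0.4015), *Tomm40l* (0.4018) and *B230312A22Rik* (0.4031) on the other.

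**Figure D1:**
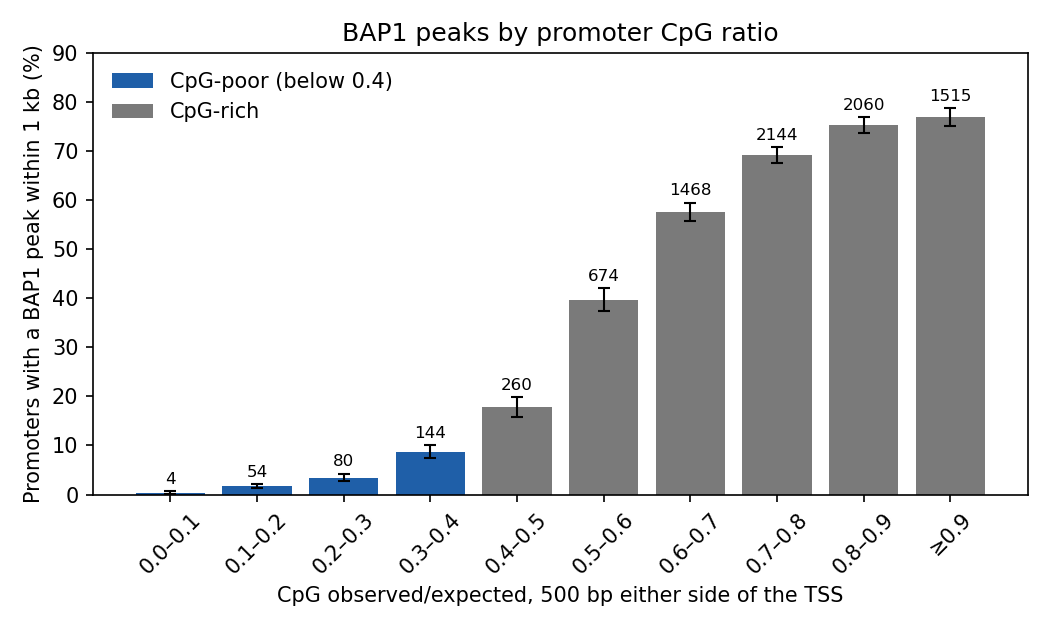
Share of protein-coding promoters with a BAP1 peak middle within 1 kb of the TSS (y axis, %) in steps of the CpG ratio (x axis). Bars are shares, error bars 95% Wilson intervals, and the number above a bar is the promoters with a peak. Blue bars are CpG-poor promoters, whose shares run from 0.255% to 8.60%, and gray bars are CpG-rich promoters, which reach 77.0%.

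Sequences of the peaks show how few CpG dinucleotides some of these sites held. The following 5 were taken from genes of blood cells whose peak covered the TSS. They are *Csf2rb*, which encodes the beta chain shared by the receptors for interleukin 3, interleukin 5 and GM-CSF (chr15:78156368-78156449), *Nckap1l*, the hematopoietic subunit of the WAVE actin regulatory complex (chr15:103284109-103284285), *Pou2f2*, the B cell octamer-binding factor Oct2 (chr7:25917478-25917614), *Bin2*, a membrane-bending BAR protein of leukocytes (chr15:100499904-100500099), and *Snx20*, a sorting nexin that binds the selectin ligand PSGL-1 (chr8:91159998-91160105). Each is written in the direction of transcription from the upstream edge of the peak to at most 30 bases past the first TSS of the gene in it. Capitals mark the ETS motif CCGGAAG, the PU.1 motif GAGGAAG and the SP motif GGGCGG, on either strand.
Csf2rb: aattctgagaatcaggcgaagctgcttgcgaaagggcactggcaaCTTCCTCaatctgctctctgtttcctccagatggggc
Nckap1l: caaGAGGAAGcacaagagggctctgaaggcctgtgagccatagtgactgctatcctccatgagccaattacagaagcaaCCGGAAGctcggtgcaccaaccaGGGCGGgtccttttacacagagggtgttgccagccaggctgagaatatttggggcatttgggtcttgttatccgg
Pou2f2: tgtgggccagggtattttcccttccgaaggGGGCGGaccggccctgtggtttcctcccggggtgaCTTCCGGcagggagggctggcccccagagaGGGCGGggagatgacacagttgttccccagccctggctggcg
Bin2: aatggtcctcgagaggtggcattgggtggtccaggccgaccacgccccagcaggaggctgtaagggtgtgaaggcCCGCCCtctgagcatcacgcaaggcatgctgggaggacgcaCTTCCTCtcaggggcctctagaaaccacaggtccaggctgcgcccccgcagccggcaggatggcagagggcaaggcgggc
Snx20: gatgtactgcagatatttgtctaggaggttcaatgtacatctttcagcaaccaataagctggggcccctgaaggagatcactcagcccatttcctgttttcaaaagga
The stretch from *Csf2rb* held 1 PU.1 motif and 2 CpG dinucleotides, and that from *Nckap1l* held 1 motif of each of the 3 kinds and 4 CpG. *Pou2f2* had 1 ETS and 2 SP motifs and 7 CpG, and *Bin2* had 1 PU.1 and 1 SP motif and 10 CpG. *Snx20* had in this stretch none of the 3 motifs and 0 CpG. For comparison, *Acta1*, skeletal muscle actin, had no BAP1 peak at its CpG-poor promoter (ratio 0.254). Its window of 200 bases ended 30 bases into the transcript (chr8:126418622-126418821, read on the minus strand). It held 10 CpG, 2 SP motifs and the TATA box motif TATAAA, the motifs again in capitals. The *Acta1* window was longer than the stretches above, so these counts cannot be compared directly. Over the full 200 bp, the *Csf2rb*, *Nckap1l*, *Pou2f2*, *Bin2* and *Snx20* peaks at the TSS held 4, 5, 7, 11 and 3 CpG. Nor was *Acta1* typical in its SP motifs. Of CpG-poor promoters without a peak, 10.0% held that motif, against 31.9% of those with one. The median CpG ratio was 0.182 without a peak and 0.303 with one.
Acta1: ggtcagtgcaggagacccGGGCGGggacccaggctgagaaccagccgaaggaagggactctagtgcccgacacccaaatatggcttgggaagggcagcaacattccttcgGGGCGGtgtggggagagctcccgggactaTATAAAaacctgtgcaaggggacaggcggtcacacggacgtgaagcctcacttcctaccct

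A peak near a CpG-poor TSS can belong to another start site, so every peak was also compared with the TSSs of all annotated transcripts. Of the 296 peaks, 224 (75.7%, 70.5 to 80.2%) had no CpG-rich TSS within 1 kb. At 168 of these the CpG-poor TSS was the nearest start site of all, and at 52 of the other 56 the nearest was another start site of the same gene. The other 72 peaks (24.3%) had a CpG-rich TSS within 1 kb, at 36 of them of the same gene only and at 36 of another gene. The CpG-rich TSS was closer to the peak than the CpG-poor one at 54 of the 72 (75.0%).

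The base composition around the peaks in part restates how they were sorted, since the CpG ratio of nearby TSSs, over overlapping DNA, made the groups. It is given as a description. Around the middle of the 224 peaks with no CpG-rich TSS, the median CpG ratio, over 500 bp each way, was 0.291 (quartiles 0.209 and 0.355), against 0.574 (0.415 and 0.752) at the 72 peaks with one and 0.781 (0.683 and 0.876) at the 8724 peaks within 1 kb of CpG-rich promoters only. The median number of CpG dinucleotides within the 200 bp was 5.00, 13.0 and 19.0, and the median G and C content 56.0%, 64.2% and 67.5%. The ratio around the peak stayed below 0.4 at 209 of the 224. It reached 0.4 or more at 15, for example 0.921 at the second peak of *Gmfg*, at -994 bp from its TSS, where no annotated TSS was CpG-rich. At the other end, 8 of the 224 had 0 CpG in the 200 bp, among them the peaks at *Cd5*, a T cell and B-1 cell surface receptor, and *Naip2*, a sensor subunit of the NLRC4 inflammasome.

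**Figure D2:**
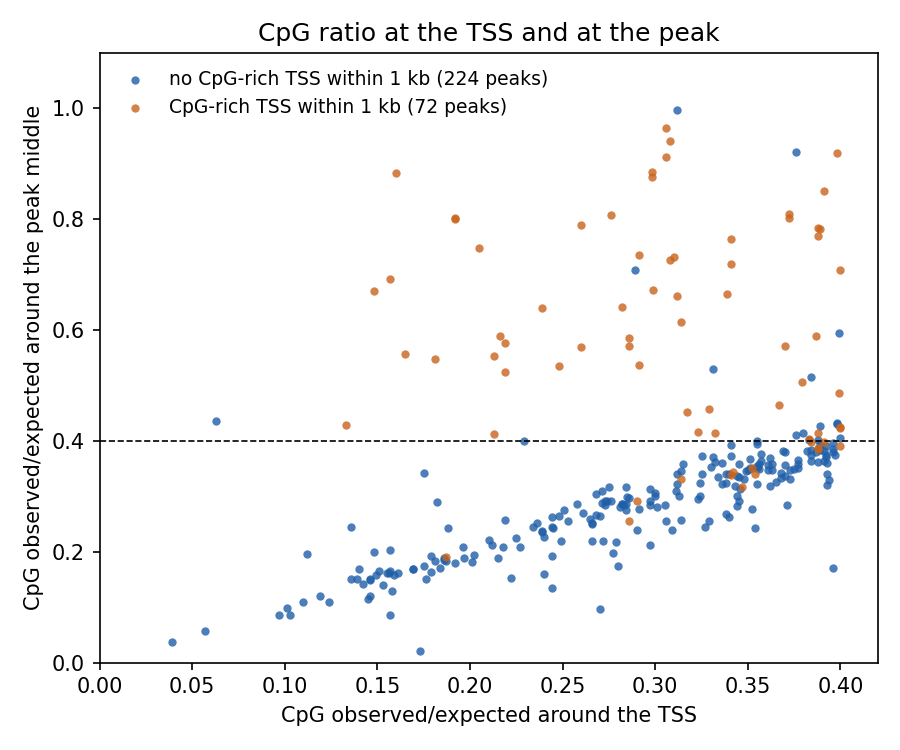
CpG ratio within 500 bp of the CpG-poor TSS (x axis) and of the peak middle (y axis) for the 296 peaks, 1 point each. Blue points have no CpG-rich TSS within 1 kb and orange points have one, and the dashed line marks the limit of 0.4. Most blue points lie near equality of the 2 ratios and below the line (209 of 224), and most orange points lie above it.

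The peaks with no CpG-rich TSS lay close to the start site. Their median position was -47.5 bp (quartiles -98.2 and 12.0), 57.6% (51.0 to 63.9%) lay within 100 bp of the TSS and 71.0% (64.7 to 76.5%) upstream of it. At CpG-rich promoters the median was -27.0 bp, with 62.8% within 100 bp and 63.9% upstream. The difference in the share within 100 bp was -5.26 percentage points (-11.9 to 1.11), an interval that includes 0, and that in the share upstream was 7.06 points (0.718 to 12.7), which does not. Both calls turned on the array of near-identical promoters on chromosome 2 described below. Without it, 54.4% of 193 peaks lay within 100 bp (difference -8.45 points, -15.6 to -1.50) and 67.4% upstream (3.43 points, -3.54 to 9.73). The 72 peaks with a CpG-rich TSS had no such center, with 13.9% within 100 bp and 62.5% more than 500 bp away, against 14.7% of the 224.

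**Figure D3:**
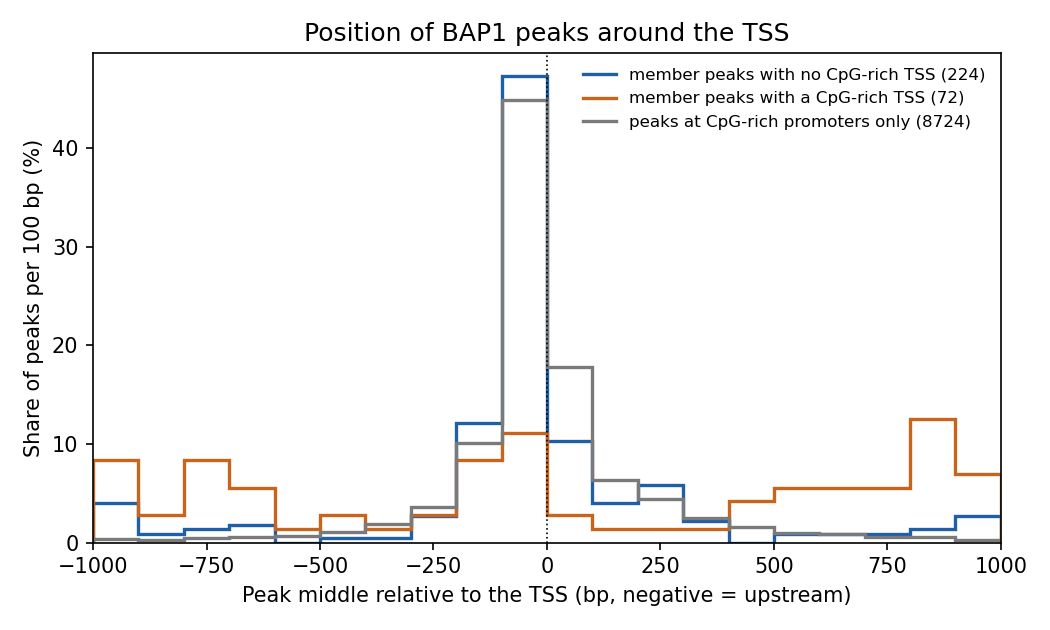
Position of peak middles relative to the TSS (x axis, bp, negative values upstream) as the share of peaks in each 100 bp (y axis, %). Blue is the 224 peaks at CpG-poor promoters with no CpG-rich TSS within 1 kb, orange the 72 with one and gray the 8724 at CpG-rich promoters only. The step from 100 bp upstream to the TSS holds 47.3% of the blue peaks, and the orange peaks are spread over the whole window.

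The promoters with the lowest CpG ratios among those with a peak within 100 bp and no CpG-rich TSS were few in CpG both at the TSS and in the peak. *Gm14406*, a zinc finger gene, had a ratio of 0.057 and its peak 92 bp upstream, with 1 CpG in the 200 bp. *Cyp4f16*, a cytochrome P450 of the fatty acid hydroxylase family, followed with 0.097 and a peak 57 bp upstream. *Ceacam1*, an adhesion molecule and inhibitory receptor, had 0.101 and a peak 21 bp upstream. *Naip2* had 0.110 and a peak 7 bp upstream. *Acap1* (0.119), an Arf GTPase-activating protein, *Tspan32* (0.124), a tetraspanin of hematopoietic cells, and *Bank1* (0.136), a B cell scaffold protein, came next with peaks at -21, -27 and 25 bp. The last 3 were *Tmem180* (0.139, -11 bp), *Fermt3* (0.142, -10 bp), the kindlin of blood cells that activates integrins, and *Alox5ap* (0.145, -81 bp), which presents arachidonic acid to 5-lipoxygenase. In all of these the peak covered the TSS and held between 0 and 5 CpG. At *Gm14406* and *Bank1* another annotated start site lay nearer to the middle of the peak.

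Blood cell genes with a CpG-poor promoter and a peak fell into several groups by function. The gene lists behind the next counts were drawn up with the member genes known, so a list's share depends in part on that choice and is no independent evidence. They are given beside the 3.18% of all CpG-poor promoters.

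Among cytokine receptor and signaling genes, 4 of 17 CpG-poor promoters had a peak. Besides *Csf2rb* (ratio 0.186, peak at -10 bp), these were *Tnf*, the inflammatory cytokine (0.297, -12 bp), *Pik3cd*, the leukocyte catalytic subunit of PI3-kinase (0.314, -43 bp, with a CpG-rich TSS of its own within 1 kb), and *Osm*, oncostatin M (0.393, 302 bp). No peak was listed at *Csf2rb2*, the neighboring paralog that encodes the interleukin 3 specific beta chain, or at *Il2ra*, *Il2rg*, *Stat5a* or *Ptprc*.

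The list of leukocyte adhesion and cytoskeleton genes, which was added after the data were seen, had 12 of 25. The peaks at *Nckap1l* (ratio 0.271, -48 bp), *Fermt3*, *Arhgap30*, a GTPase-activating protein (0.301, -44 bp), *Sipa1*, a Rap GTPase-activating protein (0.382, 1 bp), *Cyth4*, an Arf exchange factor (0.270, 12 bp), and *Bin2* (0.384, -66 bp) lay within 100 bp of the TSS. Farther off were those of *Dock2*, the Rac exchange factor of lymphocytes (121 bp), *Cd44*, the hyaluronan receptor (120 bp), *Gmfg* (-234 bp), *Rasal3* (611 bp), *Itgb2*, the integrin beta2 chain (856 bp), and *Icam2* (911 bp). At *Dock2*, *Cd44* and *Itgb2* another annotated start site lay nearer to the peak. The *Rasal3* peak lay at -34 bp from the TSS of another gene, *A530088E08Rik*, and was counted for both. The 13 without a peak included *Was*, *Coro1a*, *Rac2* and *Itgal*.

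Of 40 CpG-poor myeloid and mast cell genes, 6 had a peak. They were *Sfpi1*, which encodes the transcription factor PU.1 (0.176, 643 bp, with another start site nearer to the peak), *Alox5ap*, *Hk3*, a hexokinase of myeloid cells (0.363, -53 bp), *Card9*, an adaptor downstream of C-type lectin receptors (0.153, -50 bp), *Ptafr*, the receptor for platelet-activating factor (0.179, 15 bp), and *Adam8*, a metalloprotease (0.169, -8 bp). Granule and receptor genes such as *Mpo*, *Elane*, *Csf1r*, *Csf3r* and the mast cell proteases *Cpa3* and *Mcpt4* had none.

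Erythroid and platelet genes gave 5 of 20, namely *Nfe2* (0.268, -2 bp) and *Lyl1* (0.396, 280 bp), which encode transcription factors, *Epb4.2*, a red cell membrane protein (0.156, -57 bp), *Trfr2*, the second transferrin receptor (0.370, -61 bp), and *P2rx1*, an ATP-gated channel of platelets (0.210, -119 bp). The globins, *Gata1* and *Klf1* had no peak. T and NK cell genes gave 4 of 26, which were *Cd5* (0.196, 31 bp), the T cell receptor adaptor *Lat* (0.297, -101 bp), the transcription factor *Runx3* (0.361, -47 bp) and the inhibitory receptor *Tigit* (0.173, 874 bp).

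Of 21 CpG-poor B lineage genes, *Pou2f2* (0.384, -7 bp) and *Bank1* had a peak (9.52%, 2.65 to 28.9%), an interval that holds the 3.18% of all CpG-poor promoters. *Cd79a*, *Cd79b*, *Ms4a1*, *Blnk* and *Btk* had none. For the pre-B receptor and recombination genes the count was 0 of 8, a list that holds *Vpreb2*, *Vpreb3*, *Igll1*, *Rag1*, *Rag2*, *Dntt*, *Il7r* and *Irf4*, and the Wilson interval of that share ran up to 32.4%.

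The interferon response list, also added after the data were seen, gave 11 of 32. It included *Irf7* (0.343, -63 bp) and *Irf9* (0.327, 539 bp), the factors that drive the response, *Pml*, the scaffold of nuclear bodies (0.340, -1 bp), and *Trim21*, a cytosolic antibody receptor (0.149, -80 bp). *Oas1b* (-60 bp) and *Oas1c* (-64 bp), which encode 2'-5' oligoadenylate synthetase family members, start in opposite directions from 1 stretch of DNA and were counted for the same peak. *Ifi35* (92 bp), *Trim56* (-285 bp), *Ifitm1* (912 bp), *Rnf213* (-938 bp) and *Zbp1* (-988 bp) made up the rest. At *Irf7*, *Irf9*, *Ifi35*, *Trim56*, *Ifitm1*, *Oas1b* and *Oas1c* another annotated start site lay nearer to the peak. *Mx1*, *Isg15*, *Ifit1*, *Rsad2* and *Oas2* had no peak.

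Lists for other tissues gave 5 of 105 CpG-poor promoters (4.76%, 2.05 to 10.7%). The counts were 0 of 24 for liver plasma proteins, 0 of 16 for pancreas enzymes, 0 of 13 for germ cells, 1 of 13 for retina (*Opn1sw*), 1 of 18 for skin (*Tgm1*) and 3 of 21 for muscle (*Dmpk*, *Cox7a1* and *Actn3*). The *Actn3* peak, at -706 bp, lay 53 bp from a CpG-rich TSS of another gene. *Tgm1* had a CpG-rich TSS of its own within 1 kb of the peak.

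Families were also defined by gene symbol alone. The interferon-induced, TRIM, CD antigen and interleukin receptor families were added after the data were seen, so their shares are no independent evidence. Olfactory receptors had a peak at 0 of 1104 CpG-poor promoters (Wilson interval up to 0.347%) and vomeronasal receptors at 1 of 330 (0.303%, up to 1.70%), both below the 3.18% of all CpG-poor promoters. On the other side were the interferon-induced *Ifi*, *Ifit*, *Ifitm* and *Oas* genes with 4 of 30 (13.3%, 5.31 to 29.7%). These 4 were *Ifi35*, *Ifitm1*, *Oas1b* and *Oas1c*, all of them also in the interferon response list above, and *Oas1b* and *Oas1c* share a peak. The zinc finger genes numbered as *Zfp* had 15 of 97 (15.5%, 9.60 to 24.0%). TRIM genes had 3 of 33 (9.09%, 3.14 to 23.6%), an interval that just holds 3.18%. Keratins and keratin-associated proteins (0 of 82), serpins (0 of 56), C-type lectins (0 of 56), defensins (0 of 52), interleukins (0 of 36), chemokines (0 of 27), kallikreins (0 of 26) and interleukin receptors (0 of 25) had none, but the intervals of these 8 counts of 0 hold 3.18%. CD antigens had 3 of 64 (*Cd5*, *Cd44* and *Cd63*), and cytochrome P450 genes 3 of 84, all from the *Cyp4f* cluster on chromosome 17. The *Cd63* peak lay 915 bp from the CpG-poor TSS and 32 bp from a CpG-rich TSS of the same gene.

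The family with the most members was that of the zinc finger genes. A gene was counted as a zinc finger gene when its annotated coding sequence held at least 3 C2H2 fingers, the DNA-binding unit of most transcription factors of this class. Many of them also carry a KRAB box, which recruits the corepressor TRIM28, and are known for silencing transposable elements. Of 196 CpG-poor zinc finger genes, 48 had a peak (24.5%, 19.0 to 31.0%), against 2.70% (2.38 to 3.06%) of the other CpG-poor promoters. They made up 17.0% of CpG-poor promoters with a peak and 1.73% of those without, an odds ratio of 11.7 (8.23 to 16.6). For zinc finger genes with a KRAB box the shares were 12.8% and 0.828%, an odds ratio of 17.5 (11.5 to 26.7). The group was picked after the data were seen, and many of its promoters are near copies of each other, as described next. These ratios are a description, were not adjusted for the CpG ratio, and their intervals treat the copies as independent. The promoters of the 30 similar peaks described next had a median CpG ratio of 0.339. Of all promoters between 0.3 and 0.4, 8.60% had a peak. Among CpG-rich promoters, 256 of 383 zinc finger genes had a peak (66.8%, 62.0 to 71.4%), against 60.1% of all CpG-rich promoters.

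Of the 48 zinc finger genes with a peak, 25 lay in one array on chromosome 2. Between 174967499 and 177813309 on that chromosome, a stretch of 2.85 Mb, all 47 protein-coding promoters were CpG-poor, and 31 of them had a peak (66.0%), which is 11.0% of all CpG-poor promoters with one. The ends of the stretch are those of the first and last similar peak, so this share depends on the peaks themselves and is a description. The annotation gives most of these genes a provisional name such as *Gm14325*, and 39 of the 47 met the count of zinc fingers. The 30 peaks of similar sequence described next lay at a median of -79.5 bp (range -247 to 17), with 0 to 3 CpG in the 200 bp, and none of these peaks had a CpG-rich TSS within 1 kb. Of the 31 promoters, 30 had peaks that shared at least 40 words of 12 bases with another peak of the group, *Gm14406* being the exception. Outside the array, 23 of 157 CpG-poor zinc finger genes had a peak (14.6%, 9.96 to 21.0%), and the odds ratio for zinc finger genes was 6.34 (4.00 to 10.1). For those with a KRAB box the shares there were 7.57% and 0.806%, an odds ratio of 10.1 (5.97 to 17.0).

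The peaks of the array are near copies of each other, as the stretches from *Gm14391* (chr2:175032389-175032526), *Gm14325* (chr2:177575012-177575208) and *Zfp931* (chr2:177813152-177813309) show, read on the minus strand. Capitals mark a run of 20 bases that 28 of the 30 similar peaks held without a mismatch. *Gm14403*, whose promoter (chr2:177282761-177282949, plus strand) had no peak, is added for comparison.
Gm14391: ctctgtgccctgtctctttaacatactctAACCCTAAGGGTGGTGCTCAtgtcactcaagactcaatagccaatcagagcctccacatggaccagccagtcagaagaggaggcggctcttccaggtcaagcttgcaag
Gm14325: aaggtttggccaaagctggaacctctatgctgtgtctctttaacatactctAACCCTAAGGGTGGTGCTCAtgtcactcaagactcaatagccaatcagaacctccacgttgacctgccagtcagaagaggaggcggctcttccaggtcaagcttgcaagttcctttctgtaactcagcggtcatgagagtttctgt
Zfp931: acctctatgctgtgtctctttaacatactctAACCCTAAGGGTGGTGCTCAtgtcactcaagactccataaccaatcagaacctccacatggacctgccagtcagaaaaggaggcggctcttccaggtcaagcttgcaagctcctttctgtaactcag
Gm14403: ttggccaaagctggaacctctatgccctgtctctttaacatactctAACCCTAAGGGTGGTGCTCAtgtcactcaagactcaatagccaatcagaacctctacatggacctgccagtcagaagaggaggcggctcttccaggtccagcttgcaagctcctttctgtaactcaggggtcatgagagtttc
The run occurred within 300 bp of the TSS at 29 of the 31 array promoters with a peak, at 7 of the 16 without one, and at 0 of the 8810 other CpG-poor promoters. How reads that matched several copies were placed is not given in the sources used here, and what part this had in which copies were listed was not tested. Over all 296 peaks, 16.6% had a peak of similar sequence elsewhere in the list, against 1.26% of peaks at CpG-rich promoters only, 14.2% (13.2 to 15.3%) of the 4144 peaks at neither kind of promoter and 5.68% of all peaks. Of the 49 peaks behind the 16.6%, 30 were the group of similar peaks in the array. The *Gm14406* peak, also in the array, was similar to that of *Gm14444*. The remaining groups of similar sequence among the 296 were also pairs or triplets of zinc finger genes, such as *Zfp345*, *Gm14124* and *Gm14139* on chromosome 2.

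**Figure D4:**
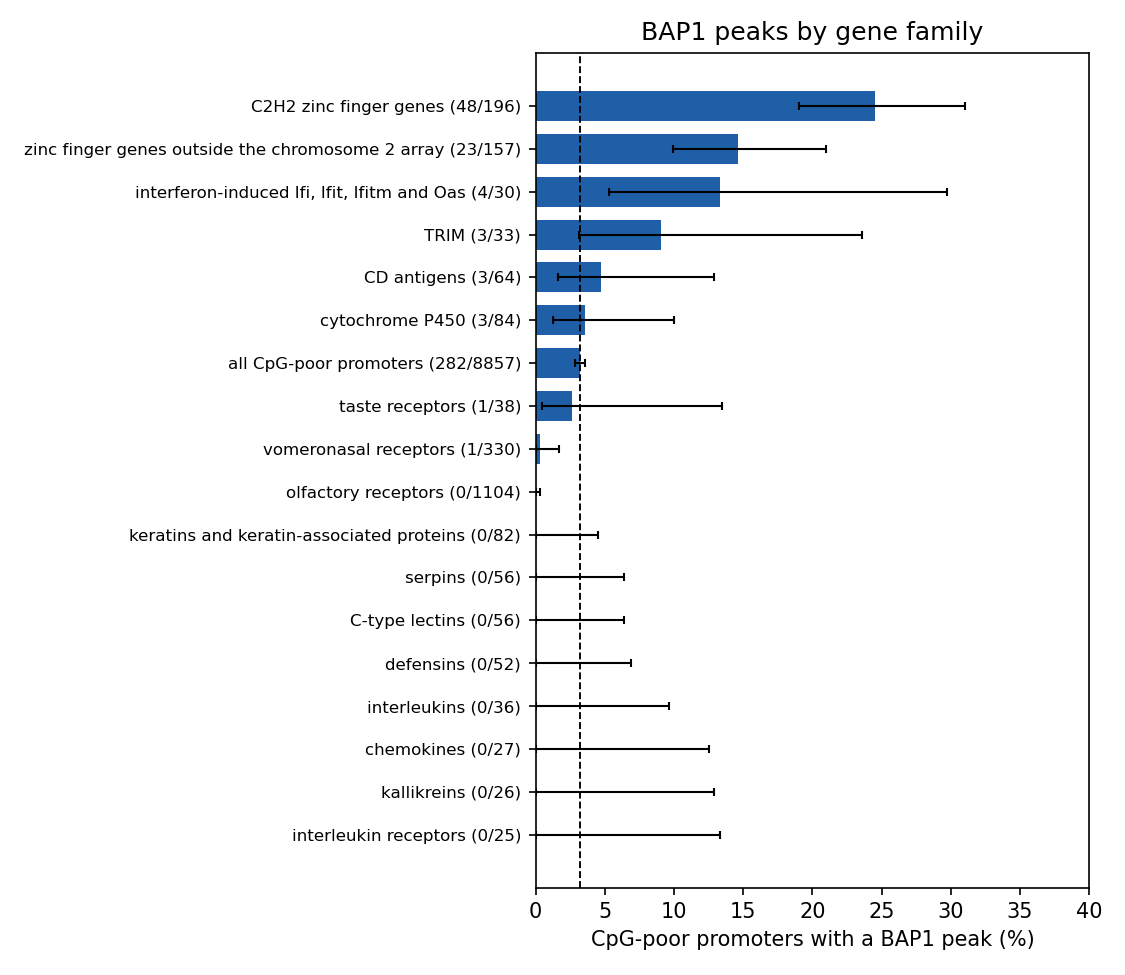
Share of CpG-poor promoters with a BAP1 peak (x axis, %) by gene family (y axis, with the count of promoters with a peak and in all). Families defined by symbol have at least 20 CpG-poor members, and the numbered *Zfp* family is left out. Zinc finger genes are those with at least 3 C2H2 fingers. Bars are shares, error bars 95% Wilson intervals, and the dashed line is the 3.18% of all CpG-poor promoters. The intervals of the zinc finger genes (24.5%), those outside the chromosome 2 array (14.6%) and the interferon-induced genes (13.3%) lie above the line, and those of the vomeronasal (0.303%) and olfactory receptors (0 of 1104) below it. The zinc finger groups and the interferon-induced, TRIM, CD antigen and interleukin receptor families were picked after the data were seen.

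The promoters with and without a peak differed in their surroundings. A CpG-rich TSS of any gene lay within 1 kb at 21.3% (16.9 to 26.4%) of CpG-poor promoters with a peak and 2.09% of those without, an odds ratio of 12.7 (9.19 to 17.5). A peak at that CpG-rich TSS can also lie within 1 kb of the CpG-poor one and be counted for it. Since 60.1% of CpG-rich promoters had a peak, this ratio follows in part from the counting rule and is a description. Another BAP1 peak between 1 and 50 kb away was found at 76.6% of promoters with a peak and 36.4% of those without (odds ratio 5.72, 4.32 to 7.56). More than 1 transcript was annotated for 77.0% and 42.3% of the genes (4.56, 3.45 to 6.04), and a transcript of a single exon, typical of the olfactory receptors, was used for 3.55% and 24.1% (0.116, 0.0613 to 0.218). Genes on chromosome X made up 1.42% and 5.40% (0.252, 0.0935 to 0.679). Median G and C content over the 500 bp either way of the TSS was 52.7% with a peak and 45.9% without, and the median CpG ratio was 0.303 and 0.182, so the groups were not matched in base composition. Of the 8575 CpG-poor promoters without a peak, 292 (3.41%) belonged to a gene that had one within 1 kb of another of its start sites.

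Short motifs of known transcription factors were searched in the window from 250 bases before to 50 after the TSS, on both strands. Of the 18 motifs, CCGGAAG is that of the ETS family, GAGGAAG that of PU.1, GGGCGG that of SP factors, CCACACCC that of KLF factors, AANATGGC that of YY1 and GCGCATGCG that of NRF1. Also searched were those of E2F (TTCCCGC), CREB (TGACGTCA), NFY (CCAAT), E-box proteins (CACGTG) and ZNF143 (ACTACAA), and the TATA box as TATAAA. The remaining motifs were TGTGGT for RUNX, AGATAA for the GATA family, TGANTCA for AP-1, TTCNNNGAA for STAT, GAAANNGAA for IRF and TCCCNNGGG for EBF. PU.1 belongs to the ETS family, and both of their motifs hold the letters GGAAG. Odds ratios are given with intervals that hold at 95% over the 18 motifs together.

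The ETS motif had the highest odds ratio of the 18, while the SP motif differed more in percentage points. ETS was present at 14.2% of CpG-poor promoters with a peak (40 of 282) and 1.95% of those without (167 of 8575), an odds ratio of 8.32 (4.75 to 14.6), against 11.1% of all promoters and 24.3% of CpG-rich promoters with a peak. Within 5 strata of the CpG ratio its Mantel-Haenszel odds ratio was 4.99, and within 5 strata of G and C content 5.19. The SP motif, bound by SP1 and its relatives, was present at 31.9% and 10.0% (odds ratio 4.21, 2.83 to 6.25), and at 44.6% of all promoters, and its ratio within the strata was 2.52 and 1.91. *Nckap1l* and *Pou2f2*, whose sequences are given above, held both motifs.

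The TATA motif went the other way, with 7.09% of promoters with a peak and 23.8% of those without (odds ratio 0.244, 0.121 to 0.491). It was present at 13.3% of all promoters, and its ratio within the strata was 0.308 and 0.455. All 3 of these differences also passed at a CpG ratio limit of 0.3, in promoters with no CpG-rich TSS within 1 kb and outside the chromosome 2 array.

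The PU.1 motif, found in the *Csf2rb* and *Bin2* peaks, was present at 23.4% and 15.0% (odds ratio 1.73, 1.12 to 2.66) and at 13.6% of all promoters. The EBF motif was present at 10.3% and 5.48% (1.98, 1.08 to 3.61) and at 7.14% of all promoters. Neither difference passed within strata of G and C content, where the ratios were 1.39 and 1.31, and that of EBF did not pass outside the chromosome 2 array (1.57). The GATA motif (9.93% and 17.2%, odds ratio 0.530, 0.290 to 0.967) and the AP-1 motif (5.32% and 11.2%, 0.447, 0.201 to 0.996) were less frequent at promoters with a peak, and neither passed within the CpG strata (0.589 and 0.543). They were present at 10.2% and 6.84% of all promoters.

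The other 11 motifs did not pass, among them NFY (44.0% and 38.2%, odds ratio 1.27), E-box (7.09% and 3.86%, 1.90), RUNX (17.7% and 21.9%), IRF (9.57% and 12.5%) and STAT (8.51% and 10.8%). NFY passed in 3 of the 7 alternatives (1.53 with no CpG-rich TSS within 1 kb, 1.67 with a window of 500 bp and 1.55 within strata of G and C content) but stood at 0.954 outside the chromosome 2 array, and E-box passed in 2 (2.14 over 200 bp either side of the TSS and 2.15 outside the array). YY1 is known as a partner of the BAP1 complex, and its motif was present at 1.77% and 4.57% (odds ratio 0.377, 0.0968 to 1.47) and at 6.69% of all promoters. A motif match is only a match of letters, and no factor's binding was measured here.

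**Figure D5:**
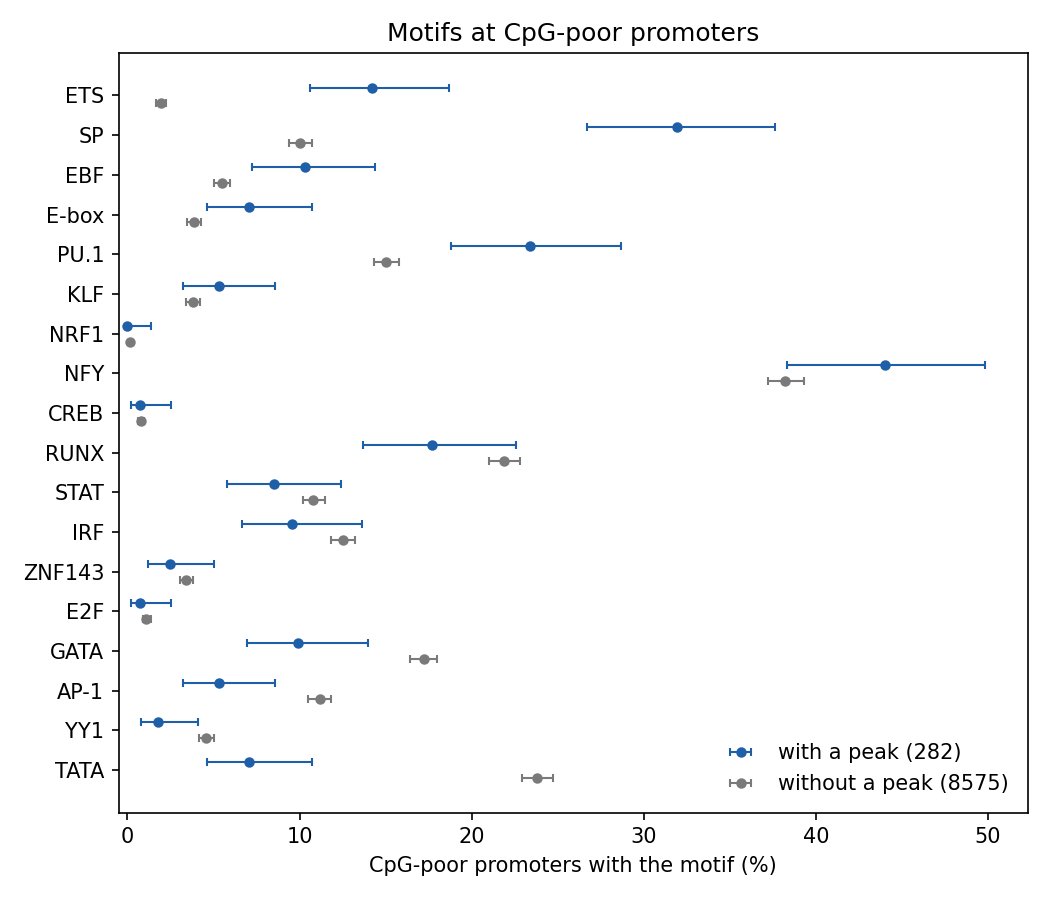
Share of CpG-poor promoters with each of the 18 motifs (x axis, %) with a BAP1 peak (blue, 282 promoters) and without (gray, 8575), ordered by odds ratio (y axis). Points are shares and bars 95% Wilson intervals of each share. ETS (14.2% and 1.95%) and SP (31.9% and 10.0%) stand apart at the top and TATA (7.09% and 23.8%) at the bottom.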

How the data were processed

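The submitters' processing notes name Bowtie 1.0.0, MACS 1.4.2 and build mm9. Peaks were called by the authors against input DNA of the same cells. The deposited list holds the start and end of each peak, pooled over both immunoprecipitations. The peak threshold, the rule that joined both samples and the handling of reads with several matches are not given in the sources used here. The 4 input and 3 H2AK119ub samples were not analysed here, and the number of columns that matched no sample was 0.

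Sequence came from NCBIM37 (mm9) and start sites from GENCODE M1. The middle of a peak is its start plus 100 bp. Shares have 95% Wilson intervals, differences Newcombe intervals and odds ratios log odds intervals (0.5 added to each cell where one was 0), Bonferroni-adjusted over the 18 motifs. No p-value was computed, as there was no replicate. Python 3.11.15, numpy 2.4.6, pandas 2.3.3, scipy 1.17.1 and networkx 3.6.1 were used and the functions tested on simulated data. The chromosome 2 array was found as the largest group of peaks sharing 40 or more 12-base words.

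The peaks, lists and motifs were chosen with earlier results of these data known. Genes were named if they had a peak and were in a blood cell list, were among the 10 lowest in CpG ratio with a peak within 100 bp and no CpG-rich TSS, were the 3 nearest the limit on either side or had the most peaks, with list genes without a peak for contrast. *Snx20*, the second peak of *Gmfg*, the zinc finger genes and the genes of the closing observations were picked after the data were seen. So were the interferon-induced, TRIM, CD antigen and interleukin receptor families.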

Additional observations from a re-analysis of the deposited data

How the results depend on the processing

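No paired analysis was possible because the results come from 1 pooled list and no test over samples. A stricter peak threshold was not run, since the list has no score, and leaving out a sample was likewise not possible. The array and the strata of G and C content were added as alternatives after seeing the data.

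The share of CpG-poor promoters with a peak moved to 2.43% with a window of 500 bp, 4.64% with 2 kb, 4.62% with CpG over 1000 bp either side, 1.92% with a limit of 0.3, 5.25% with 0.5, 3.58% with the most upstream TSS and 3.79% without chemoreceptor genes. The other 6 alternatives stayed inside its interval. The share of peaks with no CpG-rich TSS moved to 92.2% at 500 bp, 60.2% at 2 kb, 59.9% and 89.5% with CpG over 250 and 1000 bp either side and 67.8% with the most upstream TSS. Here the window also sets how far a CpG-rich TSS was sought. The median position moved to -21.0 bp with a limit of 0.3 and 0.0 bp when the nearest edge of the peak was used, which is 0 for any peak that covers the TSS. The odds ratio for a CpG-rich TSS nearby stayed above 1 in all 13 alternatives (5.71 to 18.3), which all keep the counting rule that in part sets it.

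Of the 18 motifs, 7 passed, and 3 passed with a limit of 0.3 (ETS, SP and TATA) and 4 within strata of G and C content (those and NFY). ETS, SP and TATA passed in all 7 alternatives, with odds ratios of 4.99 to 10.8, 1.91 to 5.18 and 0.180 to 0.455. PU.1 and EBF were each lost in 3 and GATA and AP-1 each in 6, and none of these 7 ratios changed direction. Of the 11 that did not pass, NFY passed in 3 and E-box in 2, and KLF, E2F, CREB, NFY, ZNF143, RUNX and IRF each lay on the other side of 1 in at least 1 alternative (0.954 to 1.34). The depth of the libraries is unknown, so a promoter without a listed peak is one at which none was called, not one shown to be free of BAP1.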

Other observations

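Several members act in lysosomes, a group picked out after the member genes were seen, so its size carries no test. *Tpp1*, a lysosomal peptidase, had a CpG ratio of 0.253 and its peak at -17 bp, and *Dpp7*, another peptidase, 0.291 and -24 bp. *Grn*, progranulin, had 0.348 and 51 bp, and *Hyal1*, a lysosomal hyaluronidase, 0.273 and -41 bp. None of these 4 peaks had a CpG-rich TSS within 1 kb. *Unc93b1*, which brings nucleic acid-sensing Toll-like receptors to endolysosomes, had 0.388 and 11 bp with a CpG-rich TSS of its own nearby. *Cln3*, mutated in juvenile Batten disease, was counted for a peak 880 bp from its start that lies 5 bp upstream of *Apobr*, the next gene.

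The lipid droplet coat proteins *Plin2* (0.391, -26 bp) and *Plin3* (0.355, the nearer of its 2 peaks at -57 bp) were also members, and so were *S100a4*, a calcium-binding protein (0.179, -32 bp), and the galectins *Lgals1* (0.273, -79 bp) and *Lgals9* (0.212, 0 bp). Of the 9 galectin genes, all with CpG-poor promoters, these 2 had a peak (22.2%, 6.32 to 54.7%, against 3.18% of all CpG-poor promoters), in a family picked after the member genes were seen.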
